A study of Rattus norvegicus with 6 samples.

Results

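The rat microRNAs miR-103-3p, miR-107-3p and miR-802-5p were followed in small RNA libraries of liver tissue from 3 Wistar rats with nonalcoholic fatty liver disease (NAFLD) and 3 normal Wistar rats. They were chosen by name, as miRNAs known for a role in insulin sensitivity, and the rule used no value measured here, although the choice was made with earlier results of these data known. The sequence of miR-802-5p was then taken from its most abundant read sequence here. They are 3 of the 367 miRNA features that had at least 1 read, where a feature is 1 mature miRNA or several that share their first bases. Their reads were spread over 283 of the 1528721 different read sequences, called tags, of the series, of which 15254 were assigned to any miRNA. None of the 3 members passed the test between the groups. miR-103-3p and miR-107-3p were abundant. Under an exact match of the first bases, their group means differed by less than the spread between animals. With up to 1 substitution allowed, the differences were larger than the SD of either group, and the groups did not overlap for miR-107-3p. Under that match 27 of 175 features, or 15.4%, did not overlap. miR-802-5p was read only a few times per 1000000 reads.

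Each library came from the liver of 1 rat, and all 6 rats are labelled as Wistar rats of 4 months, although the study's methods give another age. The NAFLD group was fasted and then fed a starch-rich diet, called high-glucose in the study, and the normal group received a standard diet. Livers rich in triglycerides were selected for the NAFLD group, whereas the normal livers were a random choice, so the NAFLD group stands for the more affected animals of its diet. The question of the comparison is which miRNAs differ between NAFLD and normal liver. Since whole liver was sequenced, fewer cells of a type and less RNA per cell cannot be told apart.

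miR-103 and miR-107 are paralogues made from hairpins that lie inside the genes of pantothenate kinases, the enzymes that start coenzyme A synthesis. Both are known from work in mouse liver and fat to lower insulin sensitivity, with caveolin-1, a protein that stabilises the insulin receptor in caveolae, as a target. miR-802 is known to be raised in the liver of obese mice. A miRNA finds its targets mainly through its seed, the bases 2 to 8 from the 5′ end, and hairpin arms are named 5p or 3p by the side from which the mature strand is cut.

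The mature sequences are shown because they decide how the reads can be told apart. Those of miR-103-3p and miR-107-3p are RefSeq sequences for rat, and that of miR-802-5p is the most abundant tag on the 5′ side of the RefSeq hairpin. Capitals mark the seed.
rno-miR-103-3p: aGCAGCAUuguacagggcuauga
rno-miR-107-3p: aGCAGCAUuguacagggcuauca
rno-miR-802-5p: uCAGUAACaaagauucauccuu
miR-103-3p and miR-107-3p share the seed GCAGCAU. They are 23 nt long and differ at position 22 alone, counted from 1 at the 5′ end, which is the capital in the next pair.
rno-miR-103-3p: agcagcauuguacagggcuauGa
rno-miR-107-3p: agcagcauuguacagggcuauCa
The seed of miR-802-5p, CAGUAAC, was shared with no other mature sequence of the reference. The seeds of miR-15b-5p, miR-16-5p, miR-195-5p, miR-322-5p and miR-497-5p equal bases 1 to 7 of miR-103-3p, so these miRNAs hold the same 7 bases moved by 1 position.

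The hairpins, from RefSeq on the rat assembly GRCr8, are shown with the mature strand in capitals because they show which arm was read. Mir103a1 lies at chr10:20748474-20748559 on the plus strand inside Pank3. Mir103a2 lies at chr3:138963227-138963312 on the plus strand inside Pank2. Mir107 lies at chr1:241750418-241750504 on the minus strand inside Pank1. Mir802 lies at chr11:46112362-46112457 on the plus strand inside the long noncoding RNA gene LOC134480977. Whether each lies in an exon or an intron was not determined here.
Mir103a1: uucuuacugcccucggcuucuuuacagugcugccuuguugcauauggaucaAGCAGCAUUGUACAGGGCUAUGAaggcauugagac
Mir103a2: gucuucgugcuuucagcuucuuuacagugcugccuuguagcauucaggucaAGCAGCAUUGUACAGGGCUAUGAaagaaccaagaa
Mir107: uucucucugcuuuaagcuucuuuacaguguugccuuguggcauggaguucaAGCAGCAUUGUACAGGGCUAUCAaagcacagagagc
Mir802: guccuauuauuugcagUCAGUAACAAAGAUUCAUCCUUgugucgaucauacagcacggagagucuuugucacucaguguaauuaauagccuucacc
Both Mir103 hairpins give the same mature miR-103-3p, so its reads cannot be assigned to 1 of them.

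The libraries held between 11601058 and 11880695 clean reads, and the level of a miRNA is given as TPM, its reads per 1000000 clean reads of the library. A tag was assigned to a miRNA when its first 18 bases equalled those of the mature sequence. TPM is a share of the library, and the reads assigned to miRNAs made up 75.7% to 79.1% of the NAFLD libraries and 85.7% to 91.2% of the normal libraries. At this depth, 3 reads correspond to between 0.253 and 0.259 TPM. Intervals on the reads are 95% Wilson intervals, which hold the counting error alone and not the spread between animals. They take each read as a separate molecule, so copies made by PCR would make them too narrow. NAFLD 2, NAFLD 3 and normal 2 stood apart in the rate of substitutions in the reads. Over 50 abundant tags, the median share of reads with another base at read position 4 was 0.808% to 0.892% in these 3 libraries and 0.043% to 0.046% in the other 3. An exact match of the first bases therefore loses more reads in these 3 libraries. The levels and fold changes of the members are given under both an exact match and a match with up to 1 substitution. The lists of insulin-related and marker miRNAs, the correlations between miRNAs, the read lengths and the fits without 1 library use the exact match alone. So do the within-library ratios, except where stated.

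miR-103-3p, whose insulin-related role in liver is described above, was read at 701, 487 and 595 TPM in NAFLD 1 to 3 and at 603, 389 and 703 TPM in normal 1 to 3. The highest and the lowest of the 6 values were both in normal liver, and the groups overlapped. The means were 594 ± 107.2 TPM in NAFLD and 565 ± 160 TPM in normal liver (SD, n = 3), from 4621 to 8357 reads per library. The log2 fold change of NAFLD over normal was 0.07 with a standard error of 0.37 and a 95% interval from -0.72 to 0.86, and the quasi-likelihood test of edgeR gave an adjusted p of 0.986. The interval therefore still holds changes of more than 0.7 on the log2 scale in either direction.

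miR-107-3p, its paralogue, was read at 558, 380 and 411 TPM in the NAFLD libraries and at 494, 249.8 and 488 TPM in the normal libraries. Normal 2 was again the lowest and NAFLD 1 the highest, with the other 4 libraries in between and mixed. The means were 449 ± 94.9 TPM in NAFLD and 410 ± 139 TPM in normal liver (SD, n = 3), from 2965 to 6468 reads. edgeR gave a log2 fold change of 0.13 with a standard error of 0.40, a 95% interval from -0.73 to 0.99 and an adjusted p of 0.986.

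Reads too short to reach position 22 carry the sequence of either miRNA, so both were also counted as 1 feature. Together they reached 1927, 1339 and 1588 TPM in NAFLD and 1686, 943 and 1775 TPM in normal liver. In every library they ranked between 12 and 14 of 366 features. The means were 1618 ± 295 TPM in NAFLD and 1468 ± 457 TPM in normal liver (SD, n = 3), and the groups overlapped. The log2 fold change was 0.14 with a standard error of 0.32, a 95% interval from -0.56 to 0.84 and an adjusted p of 0.986 in edgeR.

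miR-802-5p, the miRNA raised in obese mouse liver, had 30, 25 and 21 reads in NAFLD and 28, 8 and 18 reads in normal liver. This corresponds to 2.59, 2.13 and 1.78 TPM in NAFLD and 2.36, 0.674 and 1.52 TPM in normal liver. The groups overlapped, since normal 1 lay above NAFLD 2 and NAFLD 3. With so few reads the counting interval is wide, from 0.341 to 1.33 TPM in normal 2 and from 1.81 to 3.69 TPM in NAFLD 1. The means were 2.16 ± 0.405 TPM in NAFLD and 1.52 ± 0.844 TPM in normal liver (SD, n = 3). Its log2 fold change of 0.51 was the largest among the members, with a standard error of 0.48 and an adjusted p of 0.986 in edgeR. The 95% interval, from -0.54 to 1.56, spanned 0. It ranked between 123 and 155 of 366 features.

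**Figure D1:**
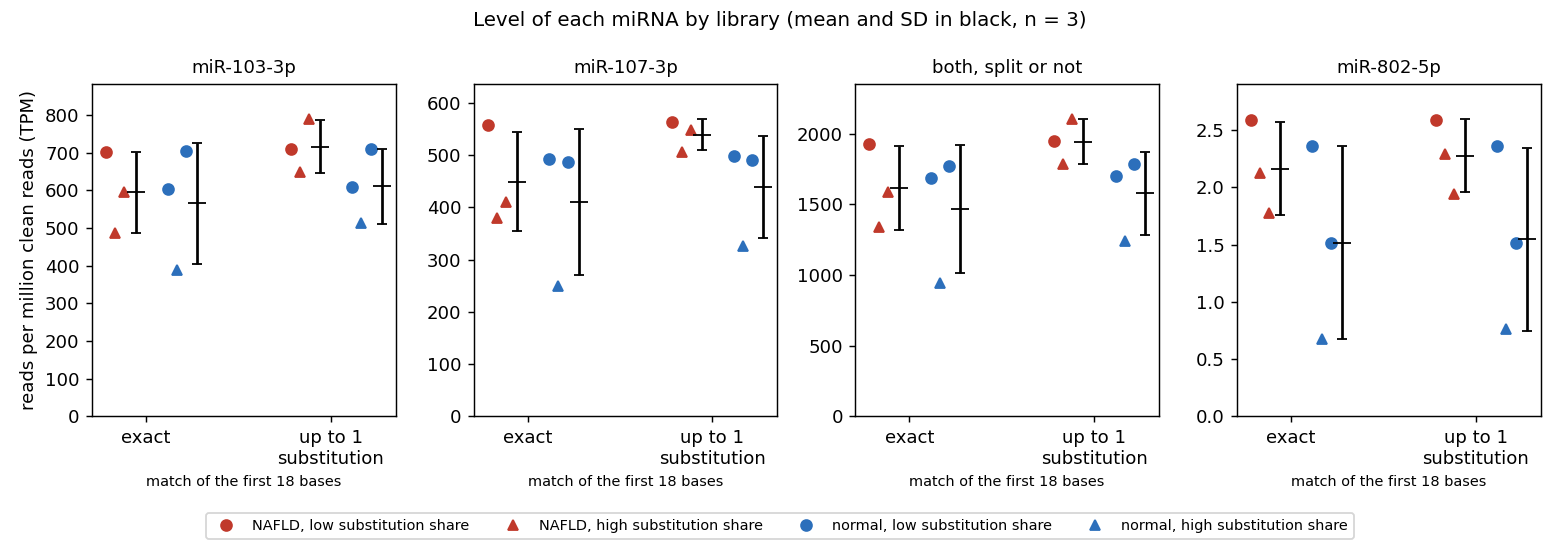
Level of each miRNA in TPM (y axis, from 0) by library, under an exact match of the first 18 bases and with up to 1 substitution, with red points for NAFLD, blue points for normal, triangles for the 3 libraries with more substitutions, and black lines for the mean and SD. Normal 2 is the lowest library for each miRNA, and the triangles move up when 1 substitution is allowed, from 943 to 1242 TPM for miR-103-3p and miR-107-3p together in normal 2.

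Of 169 miRNA features tested in the same fit, 1 was called at an adjusted p under 0.05, or 0.592%, and none of the 3 members was. Groups that did not overlap were found for 7 features, or 4.14%, and for none of the members. The median log2 fold change of all features was 0.02, so the estimates of miR-103-3p and miR-107-3p lay close to the middle of the table. The 1 feature called was miR-122-5p, the dominant miRNA of hepatocytes, which fell from 581611 ± 18436 TPM in normal liver to 456551 ± 10342 TPM in NAFLD (SD, n = 3). Its log2 fold change was -0.35 with a standard error of 0.04 and an adjusted p of 0.000499 in edgeR. In edgeR with TMM factors the count called was 0, with 11 features at an unadjusted p under 0.05, and with library sizes taken from the miRNA reads alone it was also 0, with 6 such features.

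**Figure D2:**
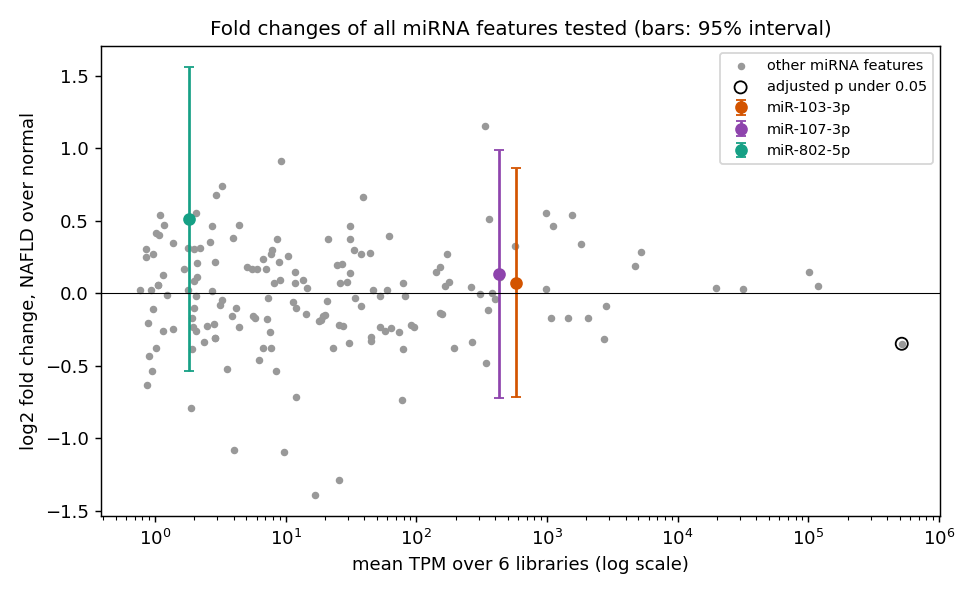
Log2 fold change of NAFLD over normal (y axis) against mean TPM over the 6 libraries (x axis, log scale) for the 169 miRNA features tested, with 95% intervals for miR-103-3p, miR-107-3p and miR-802-5p and a ring around the 1 feature with an adjusted p under 0.05. The intervals of the 3 members all span 0, and miR-802-5p, at 0.51, has the widest.

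Under the exact match, the direction of the difference for miR-103-3p and miR-107-3p rested on single libraries. Without NAFLD 1 the log2 fold change was -0.06 for miR-103-3p and -0.05 for miR-107-3p, and without normal 2 it was -0.14 and -0.13. The median of all features moved as well, to -0.20 without NAFLD 1 and -0.22 without normal 2. Both miRNAs lay above that median in each fit, so the turn was not particular to them. The log2 fold change of miR-802-5p stayed above 0 whichever library was left out, between 0.16 without normal 2 and 0.98 without normal 1. None of these values passed the threshold. With up to 1 substitution no fit left out a library, but the means kept their direction. Over NAFLD 2 and NAFLD 3, miR-103-3p had 719 TPM and miR-107-3p 527 TPM, against 610 and 439 TPM over all normal libraries. Over all NAFLD libraries the means were 716 and 539 TPM, against 659 and 495 TPM over normal 1 and normal 3. These differences were not tested.

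The substitutions in the reads touched the members directly. Of the miR-103-3p and miR-107-3p reads with up to 1 substitution in the first 18 bases, 25.0%, 24.5% and 24.04% carried one in NAFLD 2, NAFLD 3 and normal 2. In NAFLD 1, normal 1 and normal 3 the shares were 1.04%, 0.966% and 0.823%. The substitution A14C, with positions counted from 1 at the 5′ end of the read, was the most frequent, with 2886, 3475 and 1991 reads in NAFLD 2, NAFLD 3 and normal 2 and with 0, 1 and 1 reads in the other libraries. It made up 13.7%, 14.0% and 13.5% of the reads in the first 3. Next came A4G, inside the seed, with 812, 878 and 548 reads against at most 2 reads in each of the other libraries. The substitution A1C followed with 775, 854 and 464 reads against 1 in each of the others. The same changes at near-equal shares thus appeared in both groups, in 2 NAFLD libraries and 1 normal library.

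**Figure D3:**
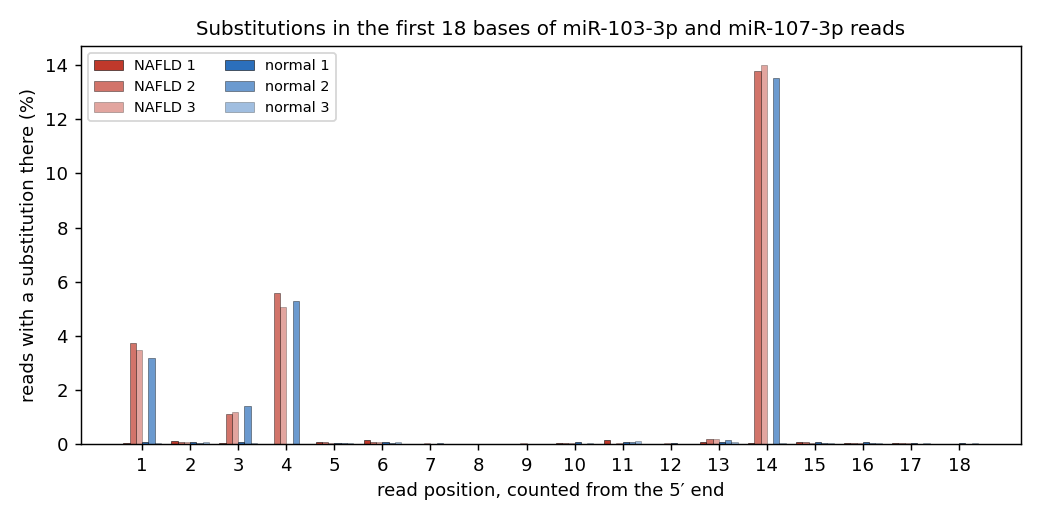
Share of miR-103-3p and miR-107-3p reads with a substitution at each of the first 18 read positions (x axis, counted from the 5′ end), in percent of the reads with up to 1 substitution (y axis, from 0), with 1 bar per library. Positions 1, 3, 4 and 14 stand out in NAFLD 2, NAFLD 3 and normal 2, where the change A14C alone makes up 13.5% to 14.0%, and bars of the other 3 libraries are near 0.

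When up to 1 substitution was allowed, the values of these 3 libraries were higher and the differences between the group means larger. miR-103-3p then reached 710, 649 and 788 TPM in NAFLD and 609, 512 and 710 TPM in normal liver, still with overlap. miR-107-3p reached 563, 506 and 548 TPM in NAFLD and 498, 326 and 492 TPM in normal liver. All 3 NAFLD values of miR-107-3p then lay above all 3 normal values, the only member for which the groups did not overlap. Under this match the same held, in either direction, for 27 of the 175 features tested, or 15.4%. The log2 fold change was 0.23 with a standard error of 0.22 for miR-103-3p, with an adjusted p of 0.817 in edgeR. For miR-107-3p it was 0.30 with a standard error of 0.24 and an adjusted p of 0.755 in edgeR. The median of all features moved to 0.16 under this match, so the members lay 0.07 and 0.14 above it. miR-802-5p gained at most 2 reads in a library, and its log2 fold change was 0.56 with a standard error of 0.40 and an adjusted p of 0.735 in edgeR.

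Within the 3 libraries with few substitutions, NAFLD 1 exceeded the mean of normal 1 and normal 3 by 0.10 for miR-103-3p, 0.18 for miR-107-3p and 0.42 for miR-802-5p on the log2 scale, under the exact match. Within the 3 libraries with many substitutions, the mean of NAFLD 2 and NAFLD 3 exceeded normal 2 by 0.47, 0.66 and 1.53. Both comparisons therefore had the higher value in NAFLD for each member, but each set holds only 1 library of 1 group, and these values have no test. With the set as a covariate, the log2 fold changes were 0.29, 0.42 and 0.87, with adjusted p of 0.536, 0.334 and 0.37 in edgeR. The median of all features in that fit was 0.24, so miR-103-3p lay close to the middle of the table there.

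The members were also compared within each library, where the scaling between libraries plays no part. miR-103-3p had more reads than miR-107-3p in all 6 libraries. There were 0.795, 0.781 and 0.690 reads of miR-107-3p per read of miR-103-3p in NAFLD and 0.818, 0.642 and 0.694 in normal liver. The log2 ratio was -0.41 ± 0.11 in NAFLD and -0.49 ± 0.18 in normal liver (SD, n = 3), a difference of 0.08 with p = 0.7 in a two-sided exact permutation test. With 3 libraries against 3 this exact test cannot go below p = 0.1, and 4 within-library quantities were tested in all.

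For each read of miR-802-5p there were 745, 630 and 893 reads of miR-103-3p and miR-107-3p together in NAFLD and 714, 1400 and 1172 in normal liver. The order of the levels was therefore the same in every library, with miR-103-3p above miR-107-3p and miR-802-5p far below both. The log2 ratio of miR-802-5p to the pair was -9.55 ± 0.25 in NAFLD and -10.04 ± 0.50 in normal liver (SD, n = 3). The difference of 0.49 had p = 0.3 in the exact permutation test and 0.4 after Benjamini-Hochberg adjustment over the 4 quantities. It was 0.29 without normal 2 and 0.78 without normal 1. In the 3 libraries with many substitutions, the exact match left out 24.04% to 25.0% of the pair's reads with up to 1 substitution. For miR-802-5p it left out 7.41% to 11.1%, at most 2 reads per library. With up to 1 substitution allowed, the difference was 0.38, with p = 0.4 in the exact permutation test. How readily each sequence is ligated and amplified was not measured, so ratios of reads between miRNAs need not equal ratios of molecules.

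The length of the reads decides which of them can be split between miR-103-3p and miR-107-3p. Of their reads, 74.9%, 75.7% and 74.7% were at least 22 nt long in NAFLD and 76.7%, 78.7% and 77.6% in normal liver. All NAFLD libraries lay below all normal libraries, at 75.1 ± 0.511% against 77.7 ± 1.01% (SD, n = 3). The difference of -2.53 percentage points had p = 0.1 in the exact permutation test, the smallest it can give, and 0.4 after adjustment over the 4 quantities. It was -2.20 within the libraries with few substitutions and -3.46 within those with many.

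The groups did not overlap at 3 lengths. Reads of 20 nt were few, at 0.835 ± 0.0322% in NAFLD and 0.626 ± 0.0689% in normal liver (SD, n = 3). Reads of 21 nt, which end just before the base that tells the miRNAs apart, made up 24.03 ± 0.479% in NAFLD and 21.7 ± 0.951% in normal liver (SD, n = 3), without overlap. Reads of 23 nt, the mature length, made up 51.5 ± 0.966% in NAFLD and 54.4 ± 1.33% in normal liver, also without overlap. Reads of 22 nt, at 18.4 ± 0.398% and 17.9 ± 0.697%, overlapped. These shares by length are parts of 1 whole, so they are not separate from the share of reads long enough to split. They were not tested one by one.

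Of the reads long enough to split, 48.9 ± 1.09% in NAFLD and 50.1 ± 3.02% in normal liver had the miR-103-3p base at position 22 (SD, n = 3). The miR-107-3p base was found in 36.9 ± 2.07% and 35.7 ± 2.28%. The remaining 14.2 ± 1.25% and 14.2 ± 0.845% had a base that neither miRNA has there, mostly T at 10.6 ± 0.856% and 10.2 ± 0.788%. These reads were counted only for the pair together. A base added to a read of 21 nt, or an error, could also give the base of either miRNA, and how many split reads arose so was not tested.

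The most abundant tags show the forms behind these counts, with the splitting base in capitals and T for U as in the reads. The first of each miRNA is the exact mature sequence, and the tag of 21 nt belongs to either.
miR-103-3p, 23 nt: agcagcattgtacagggctatGa
miR-103-3p, 22 nt: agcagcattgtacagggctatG
miR-103-3p, 23 nt with another end: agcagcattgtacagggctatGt
miR-107-3p, 23 nt: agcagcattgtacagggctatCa
miR-107-3p, 22 nt: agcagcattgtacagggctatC
miR-107-3p, 23 nt with another end: agcagcattgtacagggctatCt
either, 21 nt: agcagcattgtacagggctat
The exact mature tag of miR-103-3p had 4897, 3343 and 3939 reads in NAFLD and 4015, 2682 and 5020 in normal liver. That of miR-107-3p had 3710, 2508 and 2695 reads in NAFLD and 3325, 1795 and 3296 in normal liver. The tag of 21 nt was read more often than the mature tag of miR-107-3p in all 6 libraries, with 5289, 3628 and 4492 reads in NAFLD and 4435, 2275 and 4508 in normal liver.

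The tags that end in t after the splitting base are not exact stretches of the hairpins, where an a stands at that place. Such 23 nt reads made up 12.1% to 14.7% of miR-103-3p over the 6 libraries and 17.8% to 22.3% of miR-107-3p. The share was higher for miR-107-3p than for miR-103-3p in every library. Reads of 24 nt or more showed the reverse order, with 9.61% to 11.3% of miR-103-3p and 2.66% to 3.61% of miR-107-3p. The exact mature sequence made up similar shares of both, 56.1% to 60.2% of miR-103-3p and 55.6% to 60.5% of miR-107-3p. In each of these measures the NAFLD and normal libraries overlapped.

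**Figure D4:**
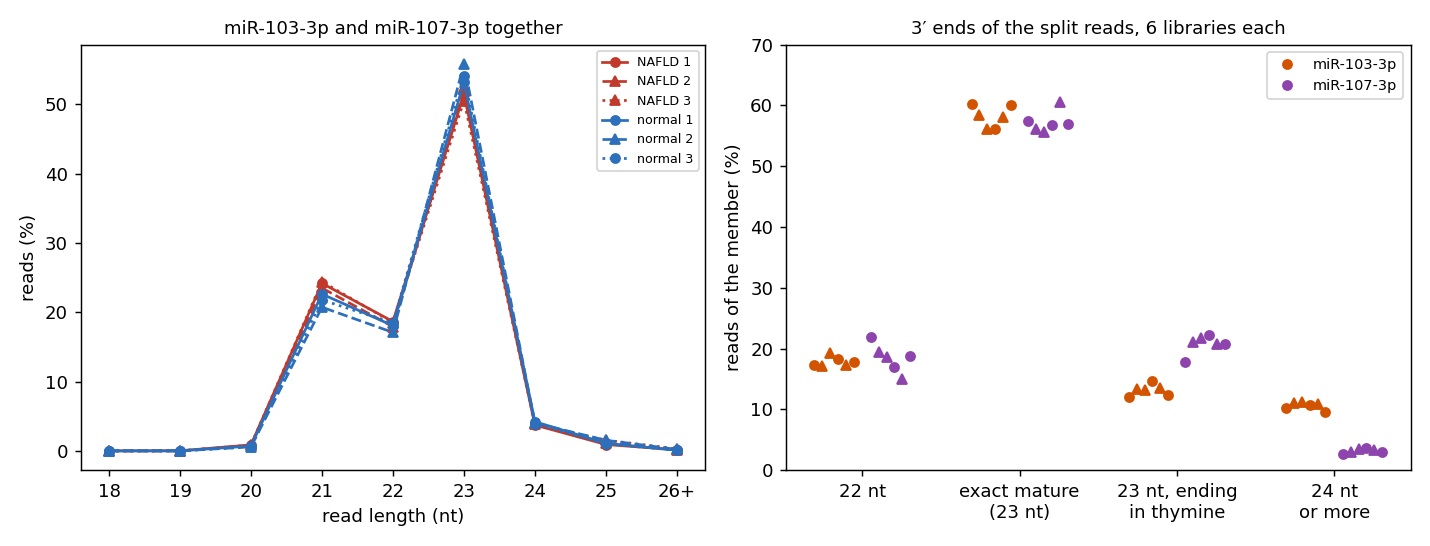
Left, share of miR-103-3p and miR-107-3p reads (y axis, percent) by read length in nt (x axis) for each library, with triangles for the 3 libraries with more substitutions. Right, share of the split reads of each miRNA (y axis, percent) by form of the 3′ end, with 1 point per library in the order NAFLD 1 to 3 and normal 1 to 3. Reads of 24 nt or more make up 9.61% to 11.3% of miR-103-3p and 2.66% to 3.61% of miR-107-3p.

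The 5′ end, which sets the seed, was nearly fixed for miR-103-3p and miR-107-3p. Of the reads that start within 3 bases of the mature start and match the hairpin in full, 99.8% for Mir103a1 and 99.9% for Mir107 started at the mature base. For Mir802, 76.5% of 132 such reads did, and 21.97% started 1 base later, which moves the seed by 1 base. The mature start of miR-802-5p was itself set by its most abundant tag, so its leading place largely follows from that choice. The 5p arms of the Mir103 and Mir107 hairpins had 5 reads in all, 0, 1 and 0 in NAFLD and 2, 0 and 2 in normal liver, against 8122 to 17049 reads per library of the 3p arms.

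The reads of miR-802-5p took several ends. Its exact mature tag, the most abundant by definition, is the first of the next lines, with the seed in capitals.
miR-802-5p, 22 nt: tCAGTAACaaagattcatcctt
miR-802-5p, 21 nt: tCAGTAACaaagattcatcct
miR-802-5p, 23 nt: tCAGTAACaaagattcatccttg
The first had 14, 11 and 12 reads in NAFLD and 19, 5 and 9 in normal liver. It made up 49.3 ± 6.95% of the miR-802-5p reads in NAFLD and 60.1 ± 9.16% in normal liver (SD, n = 3), with overlap. The difference of -10.8 percentage points had p = 0.2 in the two-sided exact permutation test and 0.4 after adjustment over the 4 quantities. It was -6.98 without normal 1 and -15.9 without normal 3, the ends of the range when 1 library was left out. The tag of 23 nt, which continues along the hairpin, had 4, 2 and 4 reads in NAFLD and 0, 1 and 0 in normal liver, counts too low for a statement on its own.

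The 3p arm of Mir802 was read more often than the 5p arm that names the member. Reads that match the hairpin in full fell on the 3p arm 151, 88 and 101 times in NAFLD and 100, 52 and 74 times in normal liver. On the 5p arm they fell 27, 22 and 25 times in NAFLD and 32, 9 and 17 times in normal liver. These counts differ a little from those above because a full match drops reads with another 3′ end and keeps reads with another start.

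The most abundant tags of the 3p arm, with 265 and 208 reads over all libraries, were these.
Mir802 3p arm, 23 nt: acggagagtctttgtcactcagt
Mir802 3p arm, 22 nt: acggagagtctttgtcactcag
The 3p arm had 81.7 ± 2.74% of the reads of both arms in NAFLD and 80.8 ± 4.77% in normal liver (SD, n = 3). The 3p share was thus above the 5p share in all 6 libraries, with Wilson intervals from 67.8% at the lowest to 92.0% at the highest. The level of the 3p arm was 9.68 ± 2.94 TPM in NAFLD and 6.35 ± 2.03 TPM in normal liver, with overlapping groups, and it was not among the features tested.

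**Figure D5:**
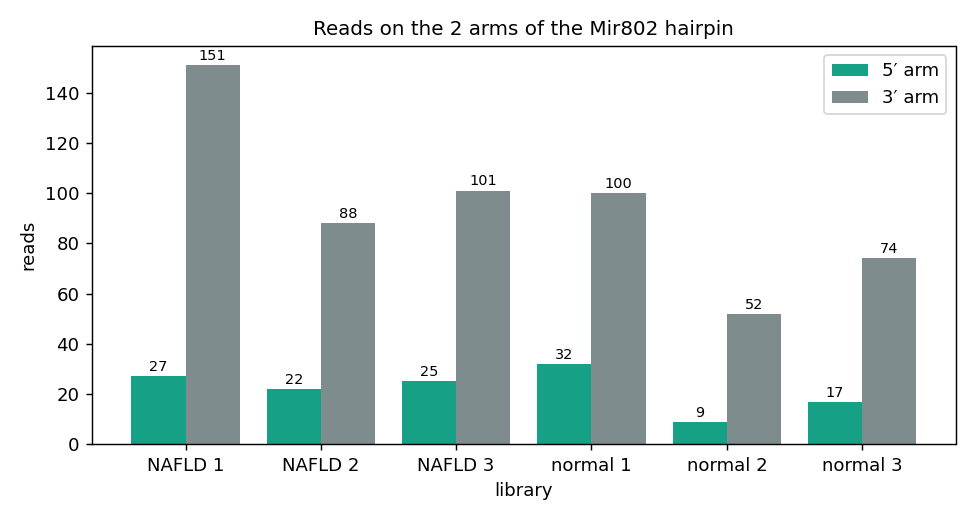
Reads (y axis, from 0) that match the Mir802 hairpin in full on its 5′ arm (green) and its 3′ arm (grey) in each library (x axis), with the count above each bar. The 3′ arm has more reads in each of the 6 libraries, from 52 against 9 in normal 2 to 151 against 27 in NAFLD 1.

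Other miRNAs known for a role in insulin signalling or glucose handling were taken as a list of 14, namely let-7a-5p, let-7b-5p, miR-143-3p, miR-145-5p, miR-26a-5p, miR-29a-3p, miR-29b-3p, miR-29c-3p, miR-33-5p, miR-34a-5p, miR-122-5p, miR-126a-3p, miR-223-3p and miR-375-3p. Reads of let-7a-5p and let-7c-5p share 1 feature. All 14 were tested, and 1 of them, miR-122-5p, passed the test, in the direction lower in NAFLD. Of the 14 log2 fold changes, 5 were above 0 and 9 below, with a median of -0.11 and a range from -1.29 to 0.31, beside a median of 0.02 over all features. The lowest was that of miR-145-5p, which had 84.6 TPM in normal 1 and 6.89 to 21.8 TPM in the other libraries. Groups did not overlap for 1 of the 14, again miR-122-5p. Over all 169 features tested, 0.592% were called and 4.14% did not overlap.

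Markers of the cells that liver tissue can hold were read as lists. miR-122-5p, which defines hepatocytes, stood at 445063 to 595583 TPM in the 6 libraries. The 4 hepatocyte markers summed to 474195 to 481459 TPM in NAFLD and 582999 to 621798 TPM in normal liver, and 1 of the 4 was called, miR-122-5p, beside 0.592% of all features. This call was lost with TMM factors and with library sizes of miRNA reads. Most of the hepatocyte sum was miR-122-5p, and the groups overlapped for the other markers of that list. Their log2 fold changes were 0.04 for miR-192-5p, -0.04 for miR-194-5p and -0.38 for miR-148a-3p. The endothelial pair, miR-126a-3p and miR-126a-5p, summed to 23.5 to 48.4 TPM in NAFLD and 14.7 to 41.1 TPM in normal liver. The 3 leukocyte markers found summed to 7.23 to 14.6 TPM in NAFLD and 3.71 to 13.0 TPM in normal liver. The 2 erythroid markers found summed to 23.98 to 67.0 TPM in NAFLD and 26.3 to 42.9 TPM in normal liver. The 2 smooth muscle markers summed to 128 to 219 TPM and 129 to 277 TPM, and the 277 TPM of normal 1 held 84.6 TPM of miR-145-5p. The 2 epithelial markers found summed to 0.765 to 2.03 TPM and 1.77 to 2.95 TPM, with miR-141-3p at 0 in NAFLD 2 and normal 2. The 2 endocrine markers summed to 15.3 to 23.5 TPM and 17.4 to 27.4 TPM.

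The 3 mesenchymal markers summed to 404 to 446 TPM in NAFLD and 213 to 390 TPM in normal liver, without overlap, which 4.14% of all single features tested showed. Nearly all of this sum was miR-199a-3p, and the groups overlapped for the other 2 markers, miR-199a-5p and miR-214-3p. The first, miR-199a-3p, known from hepatic stellate cells, stood at 423 ± 20.4 TPM in NAFLD and 296 ± 87.0 TPM in normal liver (SD, n = 3), with a log2 fold change of 0.51 and an adjusted p of 0.986 in edgeR. No marker outside the hepatocyte list was called, and the part of the cell makeup in the members' values was not tested.

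The miRNAs whose levels followed those of the members most closely over the 6 libraries were found by Pearson's r of log2(TPM + 1) among features with a mean of at least 10 TPM. For miR-103-3p they were miR-126a-5p (r = 0.971), miR-532-5p (r = 0.969) and miR-185-5p (r = 0.964). For miR-107-3p they were miR-126a-5p (r = 0.990), miR-28-3p (r = 0.990) and miR-152-3p (r = 0.982). For miR-802-5p they were miR-674-5p (r = 0.961), miR-872-5p (r = 0.898) and the feature of miR-27a-3p and miR-27b-3p (r = 0.874). The median r over all features compared was 0.828 for miR-103-3p, 0.820 for miR-107-3p and 0.593 for miR-802-5p. The points share their libraries and their total reads. Each feature named for miR-103-3p and miR-107-3p had its lowest values in NAFLD 2, NAFLD 3 and normal 2. These are the libraries with many substitutions, where the exact match used here loses more reads. Of the features named for miR-802-5p, only that of miR-27a-3p and miR-27b-3p did so. How far the substitutions enter these correlations was not tested. Of 88 features with a mean of at least 10 TPM, 53 were lowest in normal 2, as the members were, and 19 in NAFLD 2.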

How the data were processed

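Small RNA was sequenced from 3 NAFLD and 3 normal rat livers, 1 library per rat, with groups and numbers from the sample titles. The authors ligated adaptors to gel-purified small RNA, amplified and sequenced it, cleaned the reads, and deposited, per library, a count for every tag. These counts are not normalized or pooled, and hold no genome match. The submitters' processing notes name the genome builds Rnor_5.0 and rn5, which were not used here. The authors' annotation, differential expression and qRT-PCR were not analysed here.

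Tags were assigned to 687 of 694 RefSeq mature rat miRNAs, those of at least 18 nt, by their first 18 bases. miR-802-5p was taken as the most abundant tag on the 5′ side of the RefSeq hairpin. Matures with the same first bases formed 1 feature, except that tags reaching position 22 were split between miR-103-3p and miR-107-3p. TPM is the count divided by the clean reads and multiplied by 1000000. The test of the features was that of edgeR 4.0.16 (R 4.3.3, glmQLFit, glmQLFTest, filterByExpr, library size equal to the clean reads, Benjamini-Hochberg adjustment over all features, threshold 0.05), which was tested on simulated data. The simulated libraries did not differ in their substitutions, so that trait of the data was not covered. They also had the same spread between animals for every feature, which was not taken from these data. A standard error is the size of the log2 fold change over the root of its F statistic. Alternatives were limma 3.58.1 on log2(TPM + 1), DESeq2 1.42.0, other scalings, filters and matches, each library left out, a replicate block and the substitution set as a covariate. Within-library quantities were compared by two-sided exact permutation tests (Python 3.11.15, scipy 1.17.1). Counting error is small for miR-103-3p and miR-107-3p and large for miR-802-5p.

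The members, the insulin list and the hepatocyte, endothelial, leukocyte, erythroid, smooth muscle, mesenchymal, epithelial and endocrine marker lists were chosen with earlier results of these data known. Named were the members, the other arms of their hairpins, listed miRNAs past the threshold, the 3 most similar features and the 3 most abundant tags of each member. The markers miR-199a-3p, miR-199a-5p, miR-214-3p and miR-141-3p, the tag of 21 nt and the tags of the 3p arm of Mir802 were singled out after their values were seen.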

Additional observations from a re-analysis of the deposited data

How the results depend on the processing

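None of 21 alternatives to the fit of each member passed the threshold. The log2 fold change ranged from -0.14 to 0.30 for miR-103-3p (adjusted p from 0.444), -0.13 to 0.44 for miR-107-3p (from 0.271) and 0.16 to 0.98 for miR-802-5p (from 0.336), and over 20 alternatives from -0.10 to 0.40 for miR-103-3p and miR-107-3p together (from 0.229). Leaving out 1 library at a time gave -0.14 to 0.26 for miR-103-3p, -0.13 to 0.29 for miR-107-3p and -0.10 to 0.30 for the pair. It turned the direction without NAFLD 1 and without normal 2, and in no other alternative, and these fits used the exact match alone. In both of these fits the median over all features was below 0 too. The difference in the log2 ratio of miR-107-3p to miR-103-3p ranged from 0.00099 to 0.18 when 1 library was left out. The count of features called, 1, became 0 with TMM factors, 0 with library sizes of miRNA reads, 0 with up to 1 substitution and TMM factors, 7 with up to 1 substitution and the substitution set as a covariate, and 1 to 2 when 1 library was left out (2 without NAFLD 1). Matches with up to 1 substitution combined with another choice were added after seeing the data. Deviations of same-numbered libraries correlated at 0.15, 0.34 and -0.54, so the numbers were taken as names. With a replicate block the log2 fold change was 0.10 for miR-103-3p, 0.18 for miR-107-3p, 0.59 for miR-802-5p and 0.18 for the pair, and the count called stayed at 1. Depth limits miR-802-5p, with 8 to 30 reads per library. For the members the cause of these changes was not tested.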
